A study of Homo sapiens with 6 samples.

Results

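LINC with a number is the placeholder symbol for a long intergenic non-coding RNA, a transcript from between protein-coding genes that is not translated into a known protein. A row of the deposited table was taken where its symbol was LINC followed by digits only and its raw counts summed to at least 60 over the 6 libraries. This gave 216 of the 2138 LINC rows, and 838 of those rows held at least 1 count. The table has 60605 rows in all, and 15167 of any kind reach the same sum. GENCODE release 29 types 173 of the 216 as lincRNA, 16 as processed transcript, 12 as antisense, 7 as transcribed unprocessed pseudogene and 1 as protein-coding, and 34 overlap a protein-coding gene, so the symbol does not hold to its name for every row. The 216 rows carry 215 symbols, because LINC01605 has a pair of overlapping rows. Since the summed count chose the rows, their level is a description here, while the comparison between the hairpins was not used to choose them.

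The libraries came from HepG2, an established human liver cancer line whose genotype is labelled WT. Lentivirus delivered a control hairpin to the cells of 3 libraries (sh-control) and a hairpin directed at circFTO to those of the other 3 (sh-circFTO). All grew in DMEM with serum. circFTO is a circular RNA formed from exons of the FTO gene. The series title calls it induced by c-Myc and ties it to growth without serine and glycine, but no deprivation is named for these libraries, and both groups come from 1 line, with no second hairpin against circFTO among the libraries used. Nothing in the labels shows that the 3 libraries per group grew as separate cultures, and the p-values rest on the spread among them, which may be technical.

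Long intergenic RNAs are made by RNA polymerase II, and many are capped, spliced and polyadenylated like messenger RNAs. Most are present at far fewer copies than messenger RNAs and in few tissues, and for most symbols of this kind no function is settled. Those that have been studied act in several ways, some on a neighbouring gene from their own site of transcription and others away from it, in the nucleus or the cytoplasm. In liver and gut, LINC00261 is the best known, as a partner of the endoderm factor gene FOXA2 beside it.

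Total counts ran from 13361333 to 16178079 per library. Compared gene by gene, libraries of 1 group gave a chi-square of 2.04 to 4.28 per degree of freedom, so none was a copy of another, and libraries of different groups gave 84.3 to 94.6. All 8 hepatocyte and hepatoma markers and all 4 epithelial markers had a mean FPKM of at least 1. The hepatocyte markers summed to between 4310 and 4420 FPKM in sh-control and between 3430 and 3510 FPKM in sh-circFTO. The labels call the cells both epithelial and mesenchymal. Of 6 mesenchymal markers CDH2 and ZEB1 reached 1 FPKM, and VIM, COL1A1 and COL1A2 held fewer than 60 counts. The 3 endothelial markers summed to at most 1.25 FPKM in sh-control and 1.96 in sh-circFTO, the 3 leukocyte markers to at most 0.22 and 0.35, and PTPRC was at 0. FTO itself had 851, 877 and 787 counts under sh-control and 780, 939 and 924 under sh-circFTO, and such gene-level counts do not measure the circular RNA.

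The LINC RNAs went both ways. With sh-circFTO 57 rose and 56 fell, 113 of 216 in all (52.3%), and 103 were not called at an adjusted p of 0.05. Over all 15167 features tested 65.9% were called, 33.2% higher and 32.7% lower. The median log2 fold change was 0.04 over the LINC RNAs and 0.01 over all features. By at least 2-fold, 32 LINC RNAs (14.8%) rose and 25 (11.6%) fell, against 8.64% and 8.24% of all features. These 2-fold shares are not matched for depth, and most features tested have more counts than the LINC RNAs. The groups did not overlap for 115 (53.2%), against 68.3% of all features. Scaling by library size alone, without TMM, moved the median of all features to 0.16, and the LINC RNAs then split into 67 higher and 42 lower (61.5% of calls higher, against 50.4% with TMM), while all features split into 6424 and 3810 (62.8% higher, against 50.3%). In bulk libraries fewer cells of a kind and less RNA per cell cannot be told apart.

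**Figure D1:**
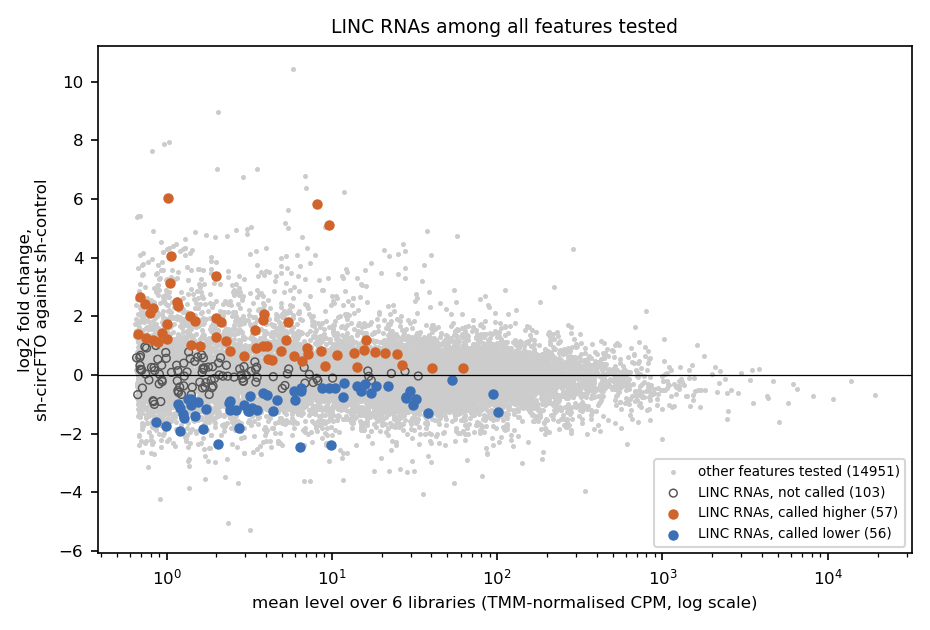
Log2 fold change of sh-circFTO against sh-control (vertical) by mean TMM-normalised CPM over the 6 libraries (horizontal, log scale) for the features tested, 1 point each. The 216 LINC RNAs lie to the left among features of low level, with 57 called higher, 56 called lower and 103 not called.

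The share called went up with depth, and the LINC RNAs had a median of 202 counts summed over the 6 libraries and all features tested a median of 2090. Of the 65 LINC RNAs with 60 to 119 counts, 23 (35.4%) were called, beside 32.8% of all features in that range. For 120 to 299 counts the shares were 43.3% of 67 and 42.9%. For 300 to 999 counts they were 66.7% of 51 and 59.1%, and from 1000 counts upward 27 of 33 LINC RNAs (81.8%) were called, beside 76.8%. In each range the share of LINC RNAs called was close to, or a little above, that of all features, and the difference was not tested. The median standard error (SE) of a log2 fold change was 0.459 for LINC RNAs in the lowest range and 0.102 in the highest. For all features it was 0.45 and 0.0695. The highest range has no upper limit, so depth is not matched within it. Without regard to sign, the median log2 fold change at 60 to 119 counts was 0.666 for LINC RNAs and 0.638 for all features. It was 0.611 and 0.569 at 120 to 299 counts, 0.548 and 0.482 at 300 to 999, and 0.53 and 0.371 from 1000 upward.

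**Figure D2:**
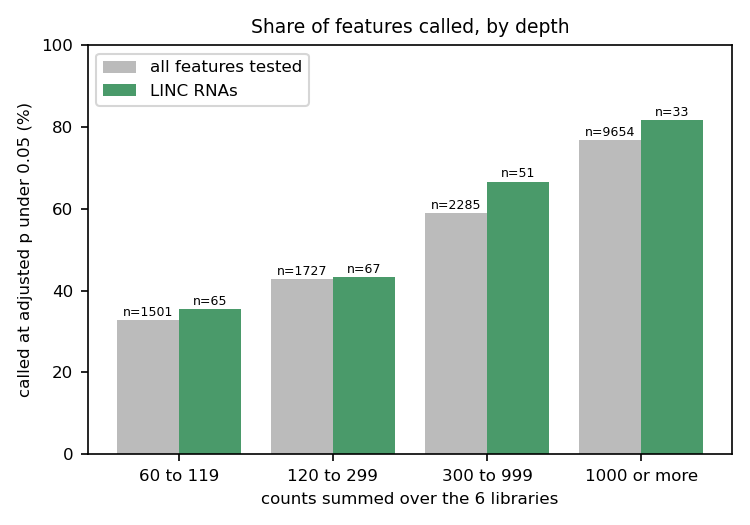
Percent of features called at an adjusted p under 0.05 (vertical, from 0) by counts summed over the 6 libraries, for all features tested (grey) and LINC RNAs (green), with the number of features above each bar. The LINC bars run from 35.4% to 81.8% and the grey bars from 32.8% to 76.8%.

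The sum also lets in rows through 1 group alone. In sh-control 32 LINC RNAs had fewer than 30 counts over the group, and 21 of these rose. In sh-circFTO 8 had fewer than 30, and 3 of these fell. Of the 176 with at least 30 counts in each group 36 rose and 53 fell. The same counts were not made over all features, so these splits are not read as a result about LINC RNAs. Just inside the limit stood LINC02675 (36 counts under sh-control, 24 under sh-circFTO), LINC01460 (23 and 37) and LINC00520 (16 and 45), and just outside it LINC02167 (7 and 52), LINC02014 (10 and 46) and LINC00649 (14 and 41). Leaving out each library in turn, 81 of the 113 calls held throughout, 42 higher and 39 lower, and 32 were lost without at least 1 library. Those that held had a median of 390 summed counts and those that were lost a median of 218.

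Per length, most LINC RNAs were scarce. The median of the mean FPKM over the 6 libraries was 0.879, from 0.0317 to 58.0, while tested protein-coding genes had a median of 6.10 FPKM. At least 1 FPKM was reached by 99 LINC RNAs and at least 10 FPKM by 7, and the 12 highest held 47.3% of the summed mean FPKM of all 216. The deposited FPKM divides by the library total without TMM scaling, so it is used here to rank genes, and the tests use counts.

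The highest was LINC02575, a spliced RNA from chromosome 21 (44485577 to 44490288, plus strand) with 912 bp of exons. Its FPKM was 59.61, 58.29 and 57.50 in sh-control and 57.94, 59.86 and 54.99 in sh-circFTO, so it was about as abundant with either hairpin. In edgeR's quasi-likelihood fit it was lower by a log2 fold change of -0.17 (SE 0.0638, adjusted p = 0.0157, Benjamini-Hochberg over all features). That call was lost with library size only, at -0.02 with an adjusted p of 0.783, and without sh-circFTO replicate 3, at -0.14 with an adjusted p of 0.0833.

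LINC02313 on chromosome 14 (31944853 to 31950382, plus strand) had 19.89, 19.78 and 17.78 FPKM in sh-control and 40.28, 40.37 and 34.77 in sh-circFTO. The 3 sh-circFTO libraries stood well above the others, and its log2 fold change was 0.85 (SE 0.111, adjusted p = 3.96e-09). LINC02365 on chromosome 4 rose as well, from 9.51 to 10.57 FPKM over the sh-control libraries to 17.88 to 20.57 over the sh-circFTO libraries, a log2 fold change of 0.80 (SE 0.102).

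LINC02525 on chromosome 6 (3182626 to 3195784, minus strand) went the other way. Its FPKM was 32.08, 31.26 and 29.16 in sh-control and 14.46, 12.95 and 14.94 in sh-circFTO, a log2 fold change of -1.28 (SE 0.0776, adjusted p = 2.01e-19). LINC01291 on chromosome 2 fell by 1.01 on the log2 scale (SE 0.0837), from 9.01 to 10.07 FPKM over sh-control to 4.96 to 5.49 FPKM over sh-circFTO. LINC00513 on chromosome 7 fell by 0.38. The remaining 3 of the 12 highest were not called: LINC00674 at -0.27 (adjusted p = 0.140), LINC02542 at -0.04 (adjusted p = 0.748) and LINC00857 at 0.14 (adjusted p = 0.257), and LINC00857 passed with library size only (0.29, adjusted p = 0.0171).

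**Figure D3:**
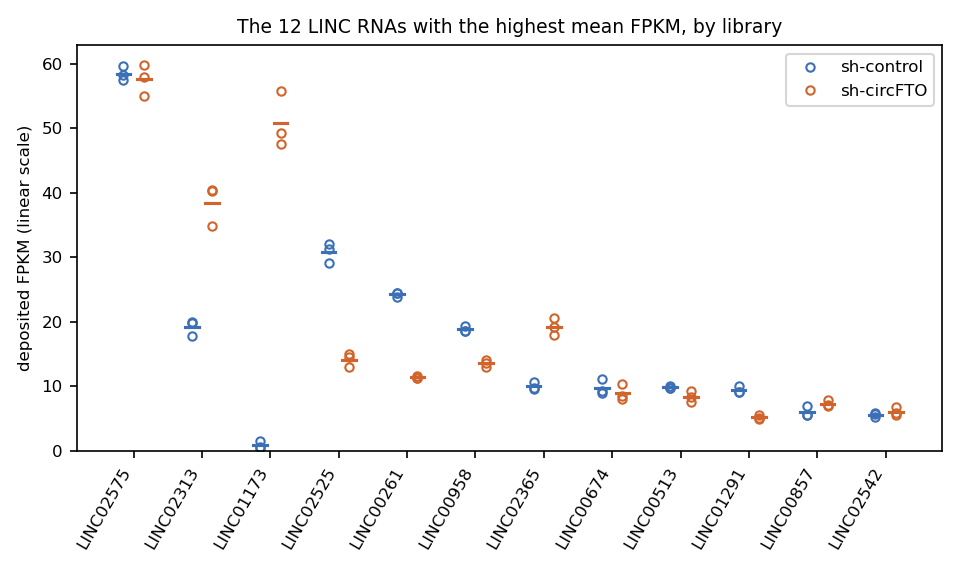
Deposited FPKM (vertical, linear, from 0) of the 12 LINC RNAs with the highest mean, with 1 circle per library and a bar at each group's mean of 3 libraries. LINC01173 moves from at most 1.42 FPKM in sh-control to at least 47.58 in sh-circFTO, while LINC02575 stays between 54.99 and 59.86 in all 6 libraries.

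LINC00261 had the most counts of all LINC RNAs, 8977 over the 6 libraries or 6.85% of their summed counts. It is a nuclear RNA of endoderm, liver and lung, transcribed beside FOXA2, and it has been described as needed for endoderm differentiation and as lost in several cancers. Its counts were 2031, 2200 and 1977 in sh-control and 857, 986 and 926 in sh-circFTO, and no library of either group came near the other group. The level fell from 142 ± 1.38 to 59.8 ± 0.842 CPM (SD, n = 3 each), a log2 fold change of -1.25 (SE 0.0510, adjusted p = 7.35e-26). FOXA2, whose start lies 6813 bp from that of LINC00261, fell from 56.8 ± 6.41 to 43.0 ± 1.59 CPM, a log2 fold change of -0.40 (SE 0.0712, adjusted p = 3.05e-06). The RefSeq window around the LINC00261 start, 250 bases before to 50 after it (chr20:22578593-22578892, minus strand, GRCh38.p14), is shown because this RNA is the most counted one and its start is the same in the table and in RefSeq. It holds none of the 4 motifs searched further on.

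LINC00261: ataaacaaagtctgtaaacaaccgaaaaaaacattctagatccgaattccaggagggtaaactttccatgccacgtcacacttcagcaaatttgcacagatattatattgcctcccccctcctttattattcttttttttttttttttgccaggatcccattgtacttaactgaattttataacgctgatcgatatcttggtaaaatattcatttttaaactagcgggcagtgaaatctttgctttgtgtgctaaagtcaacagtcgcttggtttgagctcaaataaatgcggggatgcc

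The 10 largest rises with groups that did not overlap began from near absence in sh-control. LINC02137 on chromosome 16 (58421326 to 58462470) had 0, 1 and 0 counts under sh-control and 24, 35 and 35 under sh-circFTO, a count ratio of 88.7 after scaling (exact 95% interval 15.5 to 3540, counting error only). LINC01173 on chromosome 2 (234682668 to 234717764, plus strand), with only 331 bp of exons, had 3, 2 and 7 counts under sh-control and 247, 249 and 241 under sh-circFTO. LINC02541 on chromosome 6 (113616927 to 113650090, minus strand) had 7, 11 and 5 counts under sh-control and 310, 271 and 280 under sh-circFTO. In these 3 RNAs each sh-circFTO library held at least 24 counts and each sh-control library at most 11.

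The level of LINC02541 rose from 0.520 ± 0.182 to 18.7 ± 2.93 CPM, a log2 fold change of 5.13 (SE 0.223, adjusted p = 7.21e-25). LINC01173 had a log2 fold change of 5.82 (SE 0.257, adjusted p = 1.55e-24). Per exonic length, LINC01173 alone made up 9.38% to 10.8% of the summed FPKM of the LINC RNAs in the sh-circFTO libraries, against at most 0.345% in sh-control. The start windows of both are shown because these RNAs had the largest rises among those with a RefSeq window, on LINC01173 chr2:234682418-234682717 (plus strand) and on LINC02541 chr6:113650026-113650325 (minus strand), both GRCh38.p14. Neither window holds any of the 4 motifs.

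LINC01173: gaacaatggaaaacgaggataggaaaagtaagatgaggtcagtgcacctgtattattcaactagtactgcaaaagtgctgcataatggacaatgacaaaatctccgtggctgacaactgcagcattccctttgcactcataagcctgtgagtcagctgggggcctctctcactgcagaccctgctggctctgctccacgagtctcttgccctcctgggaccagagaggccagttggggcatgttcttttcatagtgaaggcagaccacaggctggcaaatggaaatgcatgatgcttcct

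LINC02541: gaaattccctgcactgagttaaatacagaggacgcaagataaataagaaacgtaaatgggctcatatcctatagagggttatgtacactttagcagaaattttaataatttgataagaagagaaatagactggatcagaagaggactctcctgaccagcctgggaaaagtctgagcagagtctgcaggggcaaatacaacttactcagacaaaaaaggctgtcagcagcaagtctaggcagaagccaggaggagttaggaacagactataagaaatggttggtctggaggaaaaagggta

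The next rises were smaller in counts. LINC02243 on the X chromosome had 1, 3 and 1 counts under sh-control and 15, 47 and 34 under sh-circFTO, a log2 fold change of 4.07 (SE 0.573). LINC00705 on chromosome 10 had 6, 3 and 6 against 44, 77 and 50 counts, a log2 fold change of 3.38 (SE 0.382). LINC00664 on chromosome 19, which overlaps the zinc finger gene ZNF429 on its own strand, had 2, 2 and 5 against 24, 18 and 45 counts (3.14, SE 0.527). In all of these the lowest sh-circFTO library stood above the highest sh-control library. LINC01303, LINC02802, LINC01088 and LINC02766 followed, with log2 fold changes of 2.67, 2.50, 2.43 and 2.27 and between 8 and 15 counts over the whole sh-control group. LINC02766 had 36, 15 and 11 counts in sh-circFTO, so the libraries of that group differed by more than 2-fold among themselves, and without replicate 1 its log2 fold change was 1.52 (adjusted p = 0.0322). Without 1 sh-control library these log2 fold changes moved both ways. LINC02137 was at 7.92 without replicate 2 and 5.58 without replicate 1. LINC01173 was at 6.49 without replicate 3 and 5.46 without replicate 2. LINC02243 was at 4.69 without replicate 2 and 3.82 without replicate 1, and LINC01088 at 3.08 without replicate 2 and 2.03 without replicate 3. LINC02802 lies in the duplicated region of chromosome 1 near the centromere, where reads of near-identical copies could be split in the authors' counting. Of all 216 LINC RNAs, 14 rose by at least 4-fold and 3 fell by at least 4-fold, beside 386 and 148 of all 15167 features. These counts are not matched for depth, and rows that reached the limit mainly through sh-circFTO are among the LINC RNAs. Of the 32 with fewer than 30 sh-control counts, 21 were called higher. That count was not made over all features and is not read as a result.

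The largest falls started from higher levels. A row that fell strongly holds most of its counts in sh-control, and one that rose strongly holds most in sh-circFTO. With a limit on the sum, the contrast with the rises therefore follows in part from the choice of rows. LINC00888 on chromosome 3 (183447608 to 183456013, plus strand), which GENCODE release 29 types as a transcribed pseudogene, had 157, 174 and 147 counts under sh-control and 17, 28 and 48 under sh-circFTO. Its log2 fold change was -2.44 (SE 0.206, adjusted p = 2.6e-14). LINC01484 on chromosome 5 (173707614 to 173746279, minus strand) had 283, 229 and 213 counts under sh-control and 50, 46 and 52 under sh-circFTO, a log2 fold change of -2.37 (SE 0.159, adjusted p = 7.99e-18). LINC01979 on chromosome 17 (79915252 to 79926725, minus strand) had 53, 51 and 47 against 5, 13 and 13 counts, a log2 fold change of -2.36 (SE 0.336, adjusted p = 3.47e-08). In each the highest sh-circFTO library lay below the lowest sh-control library, at 48 and 147 counts for LINC00888, 52 and 213 for LINC01484 and 13 and 47 for LINC01979.

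The other 7 of the 10 largest falls were LINC00574, LINC02367, LINC02481, LINC01667, LINC01844, LINC01780 and LINC02701. Their log2 fold changes ran from -1.91 to -1.33 and their sh-control totals from 57 to 186 counts. LINC01780, LINC02701 and LINC01844 came close to overlapping. The lowest sh-control and the highest sh-circFTO library held 16 and 15 counts for LINC01780, 18 and 15 for LINC02701 and 16 and 11 for LINC01844. The start window of LINC01979 (chr17:79926676-79926975, minus strand, GRCh38.p14) is shown as that of the largest fall with a RefSeq window. It holds none of the 4 motifs either.

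LINC01979: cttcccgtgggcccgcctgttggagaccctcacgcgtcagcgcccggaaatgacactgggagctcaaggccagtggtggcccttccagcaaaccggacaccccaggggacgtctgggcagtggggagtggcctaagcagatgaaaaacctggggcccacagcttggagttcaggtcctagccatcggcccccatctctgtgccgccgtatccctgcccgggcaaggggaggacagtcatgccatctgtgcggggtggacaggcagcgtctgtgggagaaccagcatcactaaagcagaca

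**Figure D4:**
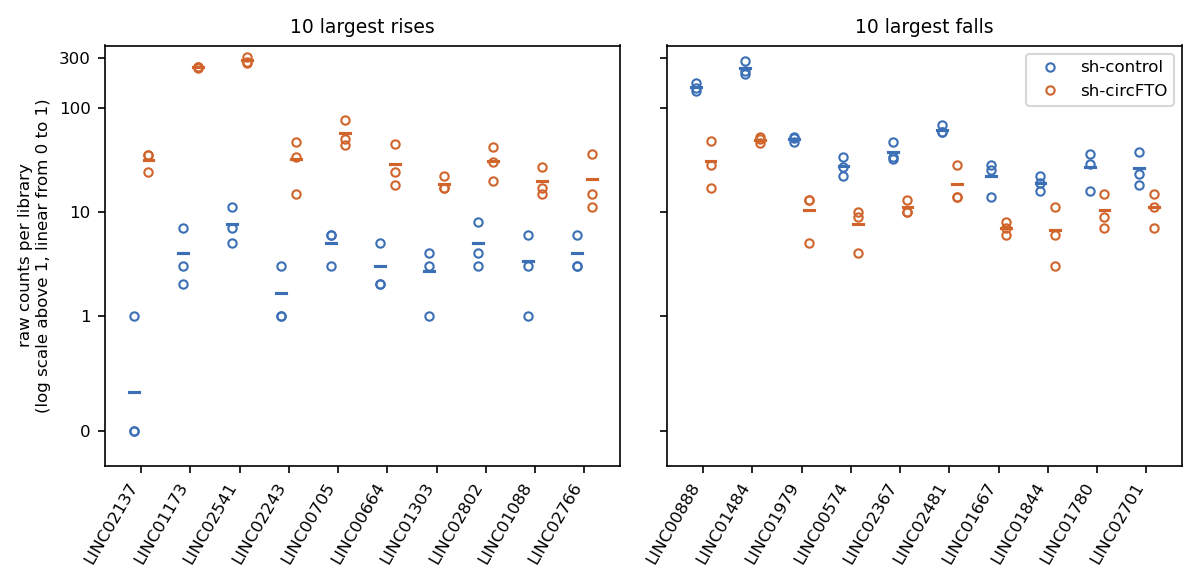
Raw counts per library (vertical, log scale above 1 and linear from 0 to 1) of the 10 largest rises and the 10 largest falls, with 1 circle per library and a bar at each group's mean of 3 libraries. For these 20 RNAs the CPM of the groups do not overlap, and the rises start from at most 11 counts in a sh-control library.

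Of 8 LINC RNAs listed for liver, 2 reached 60 counts, LINC00261 and LINC01146, and both fell. LINC01146 on chromosome 14 had 520, 594 and 428 counts under sh-control and 334, 362 and 285 under sh-circFTO, a log2 fold change of -0.73 (SE 0.0940, adjusted p = 4.65e-09). The other 6 had 0 to 21 counts over the 6 libraries and were not tested: 21 for LINC01018, 13 for LINC01554, 6 for LINC00844, 2 for LINC02499 and 0 for LINC01093 and LINC01370. The hepatocyte markers moved with these: all 8 were called lower, from APOB at -1.59 to ALB at -0.21, and their part in the LINC result was not tested.

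Of 20 LINC RNAs listed because they have been studied in liver or other cancers, 18 were found by symbol and 14 reached 60 counts. Among these 6 fell, 2 rose and 6 were not called, where 65.9% of all features were called, and their median log2 fold change was -0.21, against 0.01 over all features. LINC00152 was not found under that symbol and is outside these counts. CYTOR, its newer symbol, was tested and called higher, with a log2 fold change of 0.62 (SE 0.0889). LINC00958, described in hepatocellular carcinoma as promoting lipid synthesis, had 1610, 1796 and 1602 counts under sh-control and 1043, 1180 and 1203 under sh-circFTO. Every sh-circFTO library lay below every sh-control library, with a log2 fold change of -0.63 (SE 0.0524, adjusted p = 1.17e-14). LINC01138, described in the same cancer as a binding partner of the arginine methyltransferase PRMT5, fell from 4.89 ± 1.59 to 2.16 ± 0.144 CPM (-1.17, SE 0.243). It overlaps PPIAL4G on its own strand in the duplicated part of chromosome 1, so its counts are uncertain.

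LINC00667, LINC00963 and LINC01234 fell by 0.82, 0.80 and 0.53 on the log2 scale, with between 1531 and 1796 counts over sh-control. LINC01134 was at -0.83 with an adjusted p of 0.0436, but that call was lost with DESeq2 (adjusted p = 0.0758), with library size only (0.0972), with no filter (0.0836), with the replicate number as a block (0.0551) and without any 1 of 5 libraries (adjusted p between 0.0519 and 0.133 without sh-control replicates 1 and 2 or sh-circFTO replicates 1, 2 and 3). LINC00511, spread over chromosome 17 from 72290091 to 72640472, rose. Its counts were 829, 860 and 811 in sh-control and 998, 1149 and 964 in sh-circFTO, a log2 fold change of 0.23 (SE 0.0619, adjusted p = 0.00103). LINC01278 on the X chromosome rose from 15.8 ± 3.72 to 26.4 ± 1.56 CPM (0.74, SE 0.112), and SPIN4, which it overlaps on the same strand, was at -0.19 (SE 0.141, not called).

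The 6 not called were LINC00339, LINC00662, LINC00857, LINC00467, LINC00665 and LINC01564, at -0.25, -0.18, 0.14, 0.26, 0.47 and 0.69. LINC00339 passed without sh-control replicate 1 (-0.41, adjusted p = 0.0341), LINC00467 without sh-control replicate 3 (0.46, adjusted p = 0.0260) and LINC01564 without sh-control replicate 2 (0.97, adjusted p = 0.0288). LINC00467 and LINC01564 also passed with library size only. LINC00339 overlaps CDC42 on the same strand, a cell polarity gene that it has been described as controlling. CDC42 was at 0.76 on the log2 scale (SE 0.0407, adjusted p = 1.81e-21). LINC01564 starts 499 bp from GCLC, the catalytic subunit gene of glutathione synthesis, on the opposite strand, and GCLC was at -0.82 (SE 0.0484, adjusted p = 8.51e-20). In both loci the coding gene was called while the LINC RNA beside it was not.

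The windows of LINC01234 (chr12:113773634-113773933, minus strand) and LINC01278 (chrX:63561046-63561345, minus strand), both GRCh38.p14, are shown because they hold motifs searched for. Capitals mark the NF-Y box CCAAT, or its reverse complement ATTGG, in LINC01234 and the E-box CACGTG, the site bound by MYC with MAX, in LINC01278.

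LINC01234: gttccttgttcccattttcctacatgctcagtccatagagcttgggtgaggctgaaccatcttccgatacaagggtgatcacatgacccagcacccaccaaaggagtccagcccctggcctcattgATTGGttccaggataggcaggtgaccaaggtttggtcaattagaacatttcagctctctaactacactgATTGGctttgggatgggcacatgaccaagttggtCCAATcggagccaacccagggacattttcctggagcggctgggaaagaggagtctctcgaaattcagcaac

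LINC01278: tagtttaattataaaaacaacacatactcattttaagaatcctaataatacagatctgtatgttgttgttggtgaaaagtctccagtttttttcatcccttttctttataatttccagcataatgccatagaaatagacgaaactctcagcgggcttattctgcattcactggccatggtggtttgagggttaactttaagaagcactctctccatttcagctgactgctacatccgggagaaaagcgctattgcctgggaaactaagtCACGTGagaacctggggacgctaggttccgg

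RefSeq windows could be matched by symbol for 137 of the 216 LINC RNAs (63.4%), too few for a statement on the LINC RNAs as a set, and 88 of these had a start within 500 bp of the start in the table. On either strand, the E-box CACGTG was in 11 of the 137 windows (8.03%), in 7.43% of all 27305 windows and in 10.1% of the 10614 windows of tested features. The C/EBP-ATF element TGATGNAAN was in 4 (2.92%, against 3.67% of all windows and 1.71% of those tested) and the cyclic AMP element TGACGTCA in 3 (2.19%, against 1.98% and 3.26%). The NF-Y box CCAAT was in 52 (38.0%, against 35.7% and 36.7%). For the first 3 motifs the LINC share lay between the share of all windows and that of tested features. None of these motifs contains another. The E-box was in 3 of 38 windows of LINC RNAs that rose, 1 of 36 that fell and 7 of 63 not called. These are matches of letters and do not show binding.

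The nearest protein-coding start lay at a median of 50974 bp from the LINC start, and 34 of the 216 LINC RNAs overlapped a protein-coding gene, 14 of them on the same strand. The nearest coding gene was itself tested for 165. Both members of a pair were called in 66, and in 42 of these (63.6%) they moved the same way, 22 higher and 20 lower. For coding genes and their nearest coding gene, the share was 55.9% of 4733 such pairs. Across the 165 pairs the log2 fold changes of the LINC RNA and its neighbour had a Pearson r of 0.43 and a Spearman rho of 0.28. Without LINC01173 and LINC02137, the pairs farthest out, r was 0.32 and rho 0.25 over 163 pairs. Over 9244 pairs of coding genes r was 0.13 and rho 0.12. The points share the same 6 libraries, genes are not independent replicates, and the difference between the kinds of pairs was not tested.

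**Figure D5:**
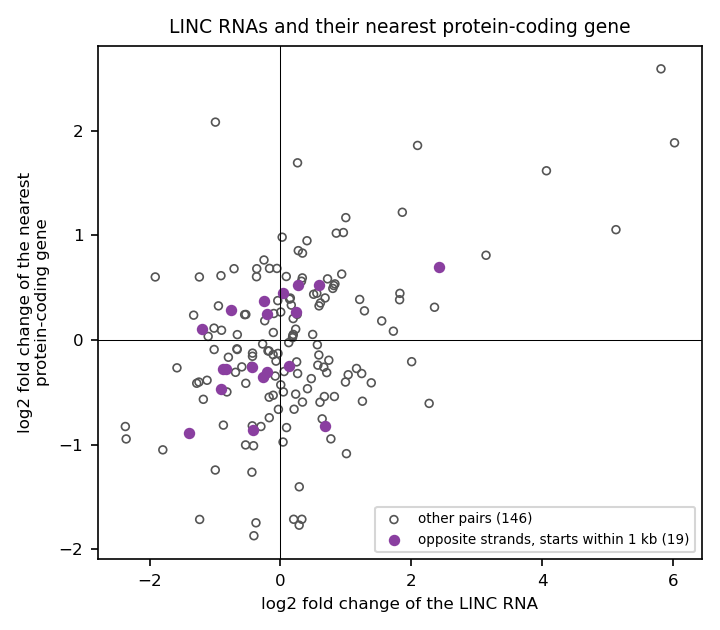
Log2 fold change of the nearest protein-coding gene (vertical) against that of the LINC RNA (horizontal), sh-circFTO against sh-control, for the 165 pairs in which both were tested. Filled points are the 19 pairs on opposite strands with starts within 1000 bp, and the 5 pairs farthest to the right lie above 0 on both axes.

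Of the 10 largest rises 7 had a tested nearest coding gene, of which 6 were called higher and 1 lower, where 33.2% of all features were called higher. Distances given here are between starts. NDRG4, 41520 bp from LINC02137 by that measure, rose from 30.5 ± 1.91 to 113 ± 4.58 CPM (log2 fold change 1.88, SE 0.0626). LINC02137 itself ends just short of the NDRG4 start at 58462846, and whether they are separate transcripts was not tested. MARCKS, which encodes an actin-binding substrate of protein kinase C and lies 207255 bp from LINC02541, rose from 195 ± 14.5 to 405 ± 11.6 CPM (1.05, SE 0.0444). MOSPD1, 34292 bp from LINC02243, rose from 30.3 ± 3.77 to 92.9 ± 0.794 CPM (1.62, SE 0.0682). PAQR3 and ZNF429, beside LINC01088 and LINC00664, rose by 0.69 and 0.81. The exception was DHRS3, a retinal reductase gene 90486 bp from LINC02766, at -0.61. Non-coding genes between the members of a pair were not considered.

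Next to the 10 largest falls, 6 neighbours were tested, of which 3 were lower, 2 higher and 1 not called. S100P, a calcium-binding protein gene 3359 bp from LINC02481, fell from 106 ± 9.01 to 51.3 ± 2.26 CPM (-1.05, SE 0.0606). BOD1, a chromosome segregation gene 129620 bp from LINC01484, was at -0.83. ERMARD beside LINC00574 and CPT1A, the enzyme of fatty acid entry into mitochondria beside LINC02701, went the other way, at 0.60 and 0.24. Among the 12 highest LINC RNAs, the GTPase-activating protein gene ARHGAP5 rose by 1.02 beside LINC02313.

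The 19 pairs on opposite strands with starts within 1000 bp can share a promoter region. In 9 both were called, and in 8 of the 9 they moved the same way, 2 higher and 6 lower. Over coding genes and their nearest coding gene the share was 55.9% of pairs with both called. Coding pairs on opposite strands with starts this close were not counted apart, and a shared promoter was not tested. The exception was LINC01089 at -0.76 with SETD1B, a histone methyltransferase gene, at 0.28. LINC01124 was at -0.43 beside SP5, a transcription factor gene and Wnt target, at -0.86, and LINC01277 at -1.40 beside AIG1 at -0.88. For LINC01277 the groups overlapped, with 35, 46 and 15 counts under sh-control and 9, 10 and 19 under sh-circFTO. LINC00205 was at 0.23 beside POFUT2, a protein fucosyltransferase gene, at 0.27. These pairs, and the LINC pairs in the next paragraph, were picked out by position or after their values were seen. The sources do not give whether the authors' counting used strand, so reads of overlapping ends could fall to either gene.

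Some LINC RNAs lie next to each other. Of 15 adjacent pairs of LINC rows with at most 100000 bp between them, both were called in 7, and all 7 moved the same way. Most of the 7 pairs overlap and LINC01128 stands in more than 1 of them, so they are not 7 separate observations. Coding genes and their nearest coding gene, paired by another rule, moved the same way in 55.9% of pairs with both called. LINC00242 and LINC00574, which overlap on opposite strands of chromosome 6, were at -1.24 and -1.91. LINC00526 and LINC00667, which overlap on opposite strands of chromosome 18, were at -0.87 and -0.82. LINC02482 and LINC02481 lie on the same strand of chromosome 4 with 13483 bp between them and were at -0.69 and -1.80. LINC01687 and LINC00308, with 98 bp between them on opposite strands of chromosome 21, were at 1.86 and 1.20. For LINC00308 the CPM of the groups overlapped, with 12, 8 and 2 counts under sh-control and 19, 23 and 12 under sh-circFTO. Without strand in the counting, overlapping LINC RNAs are not separate measurements. Both LINC01605 rows, which overlap on the same strand of chromosome 8, were at 0.26 (adjusted p = 0.630) and 1.24 (adjusted p = 0.0133).

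Some calls rest on uneven libraries. In 13 called LINC RNAs the groups overlapped. The widest was LINC01503, with 6, 11 and 0 counts under sh-control and 7, 48 and 40 under sh-circFTO, where sh-circFTO replicate 1 lay among the sh-control libraries (2.36, SE 0.784, adjusted p = 0.0227).

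In summed counts the LINC RNAs took the same part of the libraries with either hairpin, 0.147%, 0.149% and 0.140% in sh-control and 0.149%, 0.145% and 0.143% in sh-circFTO. Their part of the summed FPKM was 0.148%, 0.147% and 0.136% in sh-control and 0.181%, 0.179% and 0.175% in sh-circFTO. Without LINC01173 the sh-circFTO values were 0.162%, 0.162% and 0.158%, and the sh-control values were the same to 3 digits. Counting any LINC row with at least 1 count, 474 to 514 rows were seen in a sh-control library and 543 to 573 in a sh-circFTO library.

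Other long non-coding RNAs in the same libraries moved in their own proportions. Of 22 tested hosts of small nucleolar RNAs with an SNHG symbol, 17 fell and 0 rose, with a median of -1.10. Of 407 antisense RNAs 70 rose and 114 fell (median -0.15), of 100 divergent transcripts 12 rose and 29 fell (median -0.30), and of 21 microRNA host genes 5 rose and 4 fell (median 0.17). These lists differ in depth, with a median of 2570 summed counts for the SNHG genes and 184 for the divergent transcripts, and no difference between lists was tested. Among 18 tested RNAs with names of their own, NORAD, which binds PUMILIO proteins, fell by 1.62 and MALAT1, an abundant nuclear speckle RNA, rose by 1.42 on the log2 scale.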

How the data were processed

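RNA-seq of 6 HepG2 libraries was used, 3 sh-control and 3 sh-circFTO, grouped by their titles. Per the file headers and values, the deposited table holds raw counts per Ensembl gene and FPKM values, which equal the authors' counts scaled by exonic length and library total (0 of 363630 deposited values differed from that by more than 0.006). The sources used here give no aligner, counter, strand setting or annotation release. GRCm38, mm10 and hg18 stand in the submitters' processing notes, yet the identifiers are human. Of the LINC members 214 were in GENCODE release 29 on GRCh38, all on the same chromosome and 167 with both ends within 5000 bp, so the table's coordinates are given as GRCh38. Gene types came from that release and start windows from RefSeq (GRCh38.p14).

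Features with at least 60 counts over the 6 libraries were tested (15167) with edgeR 4.0.16 in R 4.3.3, by the quasi-likelihood test with TMM scaling, library sizes over all genes, and Benjamini-Hochberg adjustment over all features at 0.05. SEs are the log2 fold change over the square root of the F statistic. Levels are TMM-normalised CPM, mean ± SD, n = 3. Counting intervals are exact at 95% and cover counting error only. The fit was tested on simulated counts with known changes.

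The LINC members, lists and tests were chosen with earlier results of these data known. Named are the 12 highest by FPKM, the 10 largest rises and falls that were called with groups not overlapping, the members of both lists, the 3 rows on each side of the limit of 60, and nearest coding genes; other names were chosen after their values were seen, and some nearest genes are not reported here. Alternatives were other scalings, DESeq2 1.42.0, other filters, constant dispersion, the replicate number as a block, and each library left out.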

Additional observations from a re-analysis of the deposited data

How the results depend on the processing

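Most results kept their direction and side of the threshold. Of the 47 named LINC RNAs, 39 did so under each alternative run. The exceptions were LINC02575, LINC00857, LINC02542, LINC00467, LINC01134, LINC01564, LINC00339 and LINC00520. LINC02542, not called, changed sign to 0.110 with library size only and to 0.0284 without sh-circFTO replicate 2, and without single libraries it ranged from -0.1334 to 0.0284. The cause was not tested. LINC00520 lost its call without sh-control replicate 1 (adjusted p = 0.104) or sh-circFTO replicate 2 (adjusted p = 0.0625). With the filter of at least 1 FPKM in 3 libraries only 105 LINC RNAs were tested. The counts fell to 37 higher and 35 lower, beside 4489 and 4477 of all 12865 features tested there. By at least 2-fold 15 LINC RNAs were higher and 11 lower, and in 70 the groups did not overlap. These last counts are given without a share over all features. A limit of 120 summed counts left 151 LINC RNAs, with 42 higher and 48 lower, beside 4787 and 4753 of all 13666 features tested there. By at least 2-fold, 17 of these LINC RNAs were higher and 19 lower. A limit of 30 let in more LINC rows and gave 78 higher and 64 lower, and 53 and 33 by at least 2-fold. With that limit 5211 of all 17029 features were called higher and 5134 lower, and the 216 LINC RNAs themselves split into 57 and 57. With library size only the median over LINC RNAs was 0.19. Without mitochondrially encoded genes the LINC share of counts was 0.158% in sh-control and 0.156% in sh-circFTO. DESeq2 called 49 LINC RNAs higher and 52 lower, beside 4672 and 4647 of all 15167 features. Leaving out 1 library gave 50 to 57 LINC RNAs higher and 50 to 54 lower. Over all 15167 features it gave 4682 to 4816 higher and 4639 to 4904 lower. Over all features tested, libraries with the same replicate number did not deviate together from their group means (r between -0.00922 and 0.0596). This cannot exclude a shared batch, because an effect on some genes could go unseen. The fit with the replicate number as a block called 57 LINC RNAs higher and 54 lower, beside 5086 and 5017 of all features. Depth limits the low rows most.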
